A study of Homo sapiens with 15 samples.

Results

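The genes described here are 48 components of the human DNA replication machinery: origin licensing, the replicative helicase, the kinases and factors that fire origins, the replicative polymerases, the sliding clamp with its loader, the single-strand binding protein RPA, and the enzymes that mature Okazaki fragments. They were taken from a fixed list of symbols and looked up in the deposited tables. All 48 were found among 16887 listed genes, and all 48 were among the 11588 genes with enough signal to be tested over the whole set of libraries. The libraries are 15 polyadenylated RNA libraries from Mia PACA-2, an established human pancreatic cancer cell line, grown in DMEM with serum and given no drug. There were 3 groups of 5: control cells, cells overexpressing cytidine deaminase (CDA), an enzyme of pyrimidine salvage that turns cytidine and deoxycytidine into uridine and deoxyuridine, and cells overexpressing CDA_E67Q, a form in which the catalytic glutamate is replaced. The titles give every library a pool number from 1 to 5, so that each number holds 1 library of each group. The sources used here do not say what a pool is, which vector or promoter drove the transgene, what the control cells carried, or whether the pools were grown separately. A p-value here therefore reflects the variation from library to library, part of which may be technical.

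Before a cell can copy its DNA, the origin recognition complex ORC, with CDC6 and CDT1, loads rings of the MCM2 to MCM7 proteins onto origins in G1. At the start of S phase the kinase CDC7 with DBF4, together with cyclin-dependent kinases, lets CDC45 and the GINS complex join the ring, which makes the active CMG helicase. Polymerase alpha with primase then lays primers, polymerase epsilon extends the leading strand, and polymerase delta, held by the PCNA clamp, extends the lagging strand. Many of these genes are transcribed under E2F factors as cells enter S phase, so their mRNA is low in cells that are not cycling.

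Levels below are normalised levels: the deposited log2 values, taken to be variance-stabilised counts, turned back to a linear scale, with the 15 libraries on a common scale made from the control libraries, which stand in both deposited tables. A log2 difference is a difference of log2(level + 1). Tests are limma tests fitted over all genes, with Benjamini-Hochberg adjustment and a threshold of 0.05, and a gene is called when its adjusted p is below it. A score is the mean, over a set of genes, of the log2 level after subtracting each gene's mean over the 15 libraries. Depth is known only as an estimate from the commonest low values, 21.3 to 31.0 M reads a library, and 12508 to 13090 genes were read in each.

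Several libraries stood apart. The 3 libraries of pool 5 differed from all others in much of the transcriptome. The control library of pool 1 did not deviate together with the other libraries of its number: over 11588 genes its deviation from the group mean correlated at 0.01 with that of CDA pool 1 and at -0.06 with that of CDA_E67Q pool 1, and more with those numbered 4 (0.53 and 0.42). Control pool 4 correlated at 0.34 with CDA pool 4 and at 0.47 with CDA pool 1, and at 0.32 with CDA_E67Q pool 4. The same-numbered pairs of pools 2, 3 and 5 with the control ran from 0.33 to 0.89. The same-numbered CDA and CDA_E67Q libraries also ran from 0.33 to 0.89. The group means include pool 5, so libraries of the other pools can share part of their deviation whatever their number. In CDA_E67Q pool 2 the deviation of a gene fell with the length of its transcript (rank correlation -0.44 over 11337 genes; -0.30 in control pool 2 and -0.17 to 0.22 in the other 13 libraries). Values without these libraries are given beside the counts, scores and named genes that moved most with them.

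The cell line's known traits were present. CDKN2A, which this line lacks, was listed at 0 in every library, and the neighbouring MTAP was at 0 in all but control pool 5 (1.91). Keratin genes KRT8 and KRT18 were high in every library (8490.3 or more), whereas the epithelial adhesion genes EPCAM and CDH1 did not exceed 3.59. The CDA transcript was at 16.7, 250.3, 312, 9.91 and 77.2 in control pools 1 to 5. In CDA it was at 1141, 5222, 2205, 775 and 1429, and in CDA_E67Q at 1357, 1746, 5475, 1676 and 2480.2. No overexpressing library overlapped the controls, and the 2-sided exact permutation p was 0.00794 in each comparison, the smallest that 5 against 5 libraries can give. The log2 difference was 4.71 (SE 0.457, 26.2-fold, adjusted p = 0.0676) in CDA and 5.09 (SE 0.543, 34.0-fold, adjusted p = 0.0691) in CDA_E67Q. Neither passed the threshold in the fit with pool number as a block. Over the alternative settings the adjusted p ran from 0.00220 to 1.00 and passed in 3 of 14 for CDA, and ran from 0.00111 to 0.999 and passed in 4 of 14 for CDA_E67Q.

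The replication genes differed widely in abundance. Per kilobase of transcript, the control libraries held most of PCNA, the sliding clamp, at 4123 ± 1689 (SD, n = 5), of the helicase subunit MCM7 at 3837 ± 1740 and of the polymerase delta subunit POLD2 at 3029 ± 649. The spreads of these 3 overlap, but all means and spreads here include the low control pool 5. As levels not divided by length, PCNA was at 1662 in control pool 5 and at 5553 to 7231 in control pools 1 to 4. MCM7 was at 4192.5 and 10668 to 18638, and POLD2 at 4353 and 6368 to 8164. Ranks and spreads without pool 5 are not given. Of the 6 helicase ring genes MCM5 was the lowest per kilobase at 922 ± 487, although the proteins form the ring in equal number. The spread of MCM5 overlaps that of MCM6 (1162 ± 382). The lowest of all 48 per kilobase were ORC4, an origin recognition subunit, at 153 ± 19.7, the kinase CDC7 at 164 ± 45.3 and the nuclease-helicase DNA2 at 170 ± 74.7, whose spreads overlap. These ranks depend on the length used, that of 1 annotated principal transcript per gene (6710 bases for ORC4). Without division by length, ORC4 was at 1029 ± 132 in control, above CDC7 at 544 ± 150 and POLE2 at 406 ± 170.

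**Figure D1:**
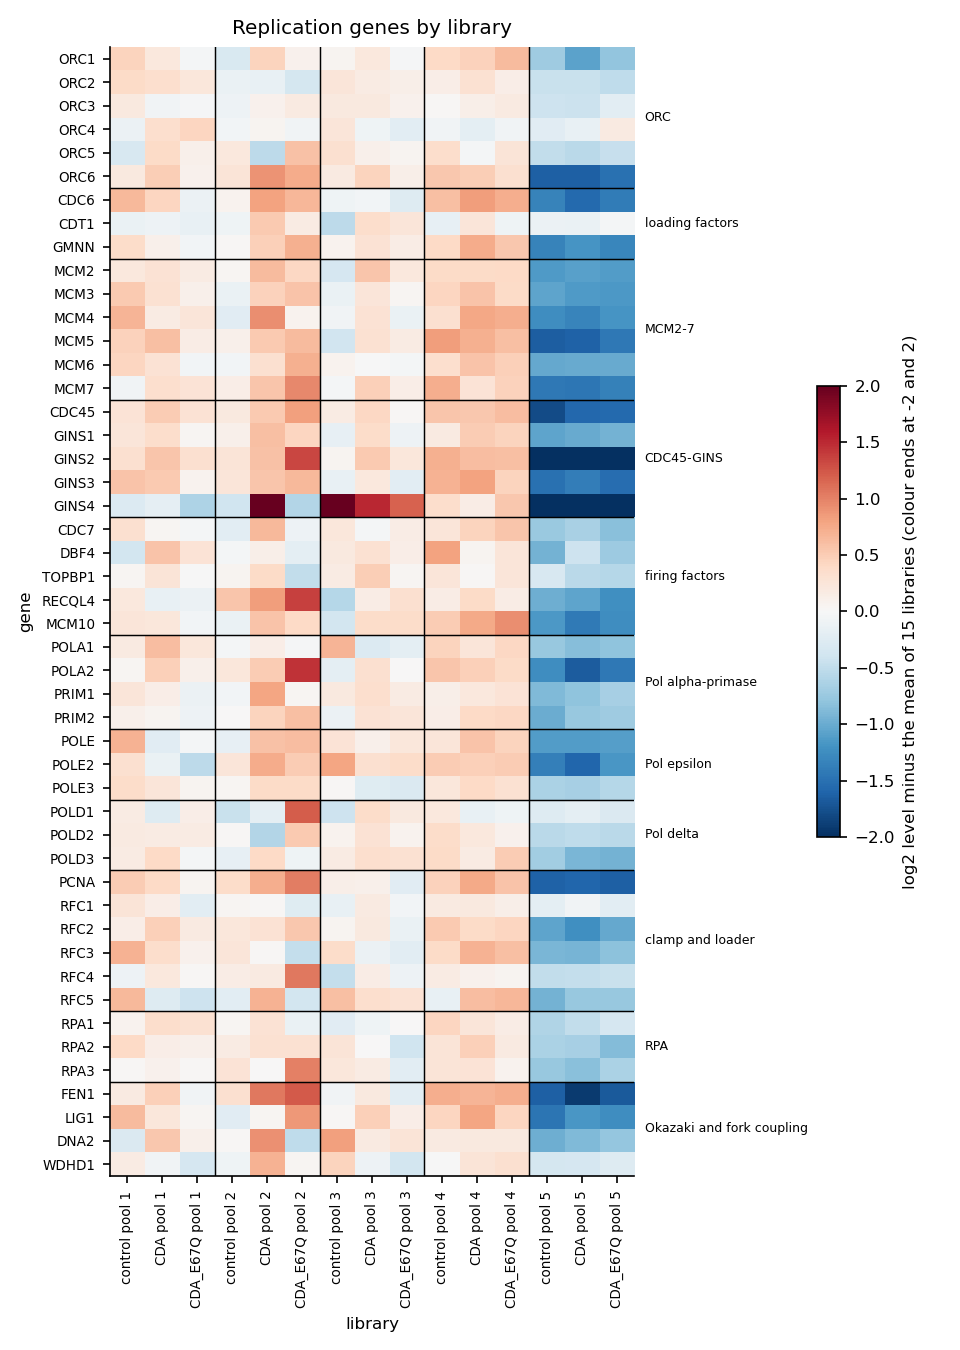
Log2 level of each of the 48 replication genes (rows, in blocks by complex) in the 15 libraries (columns, in blocks by pool number), minus the gene's mean over the libraries. The 3 pool 5 columns are blue for nearly every gene; ORC4, CDT1, POLD1 and RFC1 are pale there, and GINS4 is dark red in control pool 3 and CDA pool 2.

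The replication genes differed mainly between pool numbers. Between the 5 pool numbers 42 of 48 genes were called by a limma F test, against 45.0% of all genes tested (5217 of 11588). Pool 5, which is singled out here because earlier results had shown it to differ, was called lower than the other pools for 43 of 48 genes, against 24.2% of all genes, and higher for 0 of 48, against 24.4%. The SE and p of these tests come from the spread of libraries within a pool number, with group as a term. Pool 5 is a single pool, so they do not measure how far one pool differs from another by chance. The median log2 difference of the 48 was -1.10, beside 0.0177 for all genes tested. In 39 of 48 genes all 3 pool 5 libraries lay below all 12 others, as they did for 17.3% of all genes, and in 0 of 48 they lay above, as for 16.9%. Of the 48, 5 were at least 4-fold lower in pool 5, 25 between 2-fold and 4-fold lower, and 18 less than 2-fold lower. In bulk RNA, fewer cells in S phase and less of these transcripts in each cell cannot be told apart.

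The replication score showed the same by library. It was -0.98 in control, -0.98 in CDA and -0.94 in CDA_E67Q of pool 5, and 0.03 to 0.45 in the other 12 libraries. The difference of -1.21 was -1.18 without the control libraries of pools 1 and 4 and -1.19 without CDA_E67Q pool 2. The 3 pool 5 libraries therefore sat close together whatever the cells expressed. Among complexes, the CDC45 and GINS genes had the lowest pool 5 score relative to the other pools (-2.06), followed by MCM2 to MCM7 (-1.56). ORC (-0.80), RPA (-0.81) and polymerase delta (-0.68) had the smallest differences.

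**Figure D2:**
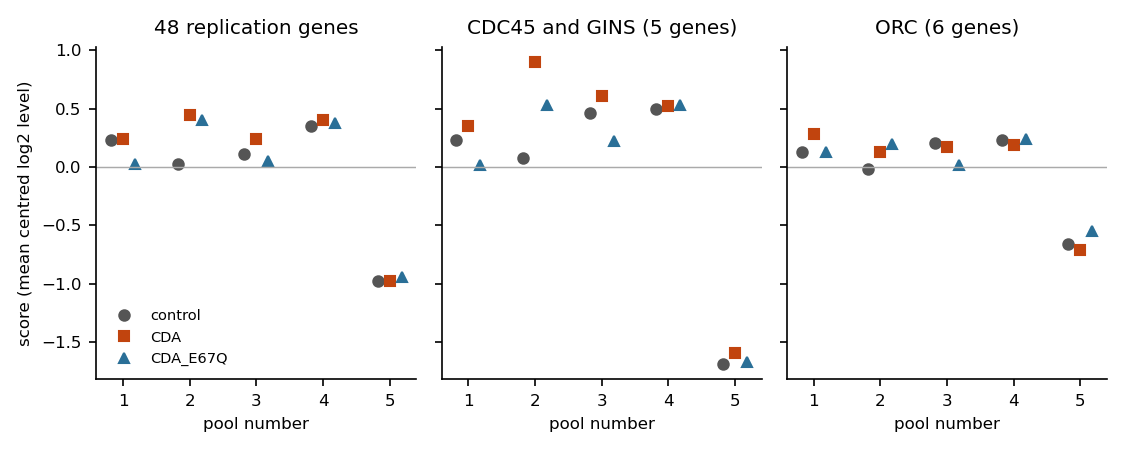
Score (mean centred log2 level) by pool number for all 48 replication genes, for CDC45 with the 4 GINS genes, and for the 6 ORC genes; each point is 1 library and its shape and colour give the group. In each panel the 3 pool 5 points lie below the other 12, between -0.98 and -0.94 for all 48, and the drop is larger for CDC45 and GINS than for ORC.

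Among the ORC subunits ORC6 had the largest difference. ORC6, the smallest subunit and the one most loosely tied to the complex, was at 504.8, 504.9 and 554 in pool 5 of control, CDA and CDA_E67Q, and at 1659 to 2909.9 (median 2048) in the other 12. No pool 5 library overlapped the others, and the log2 difference was -1.98 (SE 0.128; F adjusted p = 1.50e-05). ORC1, the subunit whose protein level cycles in human cells, differed by -1.07 (SE 0.163). ORC2 (-0.58), ORC5 (-0.62) and ORC3 (-0.44) were less than 2-fold lower, and ORC5 was not called by the F test (adjusted p = 0.139). ORC4 was at 899, 952 and 1192 in pool 5 and at 905 to 1413 (median 1004) elsewhere, so the pools overlapped and the difference was -0.08 (SE 0.145; F adjusted p = 0.524).

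Of the 3 loading factors, 2 were called. CDC6, the ATPase that brings MCM rings to ORC, was at 738, 635 and 706 in pool 5 and at 1568 to 3321 (median 2678) elsewhere, a difference of -1.79 (SE 0.166; F adjusted p = 7.87e-05). Geminin (GMNN), which holds CDT1 inactive after S phase has begun, differed by -1.59 (SE 0.144). CDT1 itself, the MCM loader that geminin binds, was at 3014, 2993 and 3191 in pool 5 and at 2277 to 4715 (median 3092) elsewhere. The pool 5 libraries lay inside the range of the others, and the difference was -0.12 (SE 0.138; F adjusted p = 0.476). CDT1 was 1.09-fold lower in pool 5, beside 3.45-fold for CDC6 and 3.02-fold for GMNN; the difference between these genes was not tested.

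All 6 helicase ring genes were called and were lower in pool 5 without overlap, by 2.41-fold (MCM6) to 3.89-fold (MCM5). MCM5 was at 974, 995 and 1145 in pool 5 and at 2344 to 5465 (median 4322) elsewhere (log2 -1.96, SE 0.148; F adjusted p = 3.19e-05). CDC45 and the GINS genes ran from -1.26 to -2.63. CDC45 was at 309, 358 and 365 in pool 5 and at 1084 to 1880 (median 1477) elsewhere (log2 -2.05, SE 0.129; F adjusted p = 1.49e-05). GINS2 was at 294, 309.7 and 288 in pool 5 and at 1282 to 3108 (median 1798) elsewhere (log2 -2.56, SE 0.170; F adjusted p = 1.87e-05). GINS3 was at 216, 233 and 210.4 in pool 5 and at 529 to 1062 (median 852) elsewhere (log2 -1.83, SE 0.139; F adjusted p = 3.19e-05). In these 4 genes the lowest of the other 12 libraries was at least 2-fold above the highest of pool 5. GINS1, of the same 4-protein complex, differed by -1.26 (SE 0.120).

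GINS4, the remaining GINS subunit, varied most of the 48. It was at 1997, 1836, 12710.4, 3084 and 577 in control pools 1 to 5, at 2133, 11599.7, 6879, 2679.7 and 596 in CDA, and at 1575, 1620.2, 5514, 3525 and 523 in CDA_E67Q. The 3 libraries of pool 3 and CDA pool 2 were the highest, CDA_E67Q pool 2 and control pool 2 were not high, and the pool 5 libraries were the lowest (log2 -2.63, SE 0.411). GOLGA7, its neighbour on chromosome 8, looked up after these values were seen, was highest in the same 4 libraries (2016 to 2665, beside 1291 to 1957 in the others). GPAT4, on the other side, was at 2262 to 3162 in these 4 and at 1501 to 3066 in the others.

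The 5 firing factors were lower in pool 5, with log2 differences from -1.58 to -0.59. MCM10, which activates the assembled helicase, differed by -1.58 (SE 0.167) and RECQL4, a helicase needed for origin firing, by -1.36 (SE 0.184). The kinase CDC7 (-0.93, SE 0.174) and its activating subunit DBF4 (-0.87, SE 0.192) changed by similar amounts. TOPBP1, a scaffold for firing that also serves the DNA damage checkpoint, differed by -0.59 (SE 0.143), with overlap between pool 5 (1862 to 2229) and the other pools (1972 to 3911). All 5 were called by the F test.

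The polymerases ranged from over 3-fold lower to no detected difference. In polymerase alpha and primase, POLA2 (-1.80), PRIM2 (-1.03) and PRIM1 (-0.98) were called, and so was POLA1, which lay between PRIM2 and PRIM1. In polymerase epsilon, POLE2 (-1.71), the catalytic subunit POLE (-1.39) and the histone-fold subunit POLE3 (-0.78) were all called. In polymerase delta, POLD3 (-1.07) and POLD2 (-0.66) were called and the catalytic subunit POLD1 was not. POLD1 was at 2551, 2666 and 2484 in pool 5 and at 2238 to 7012 (median 3099.6) elsewhere (log2 -0.31, SE 0.250; F adjusted p = 0.771). The highest value belonged to CDA_E67Q pool 2, the library in which deviations moved most with transcript length. Whether that trend bears on POLD1, with a transcript of 3444 bases, was not tested.

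PCNA was at 1662, 1693 and 1647 in pool 5 and at 4351 to 10368 (median 6854) elsewhere (log2 -2.02, SE 0.142; F adjusted p = 2.06e-05). Its loader was not lowered evenly. RFC2 was at 1169.6, 1038 and 1186 in pool 5 and at 2217 to 3508 elsewhere (log2 -1.38, SE 0.118; F adjusted p = 6.43e-05). RFC3 (-1.11), RFC5 (-1.03) and RFC4 (-0.59) were also called. RFC1, the large subunit, was at 1905, 2097 and 1887 in pool 5 and at 1855 to 2609 elsewhere, an overlap, with a difference of -0.20 (SE 0.106; F adjusted p = 0.285). The 3 RPA genes, which coat single-stranded DNA at forks and in repair, were called and differed by -0.93 (RPA3), -0.91 (RPA2) and -0.60 (RPA1).

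Among the Okazaki and fork genes FEN1, the flap endonuclease, was at 584, 476 and 564 in pool 5 and at 1557 to 4208 (median 2392) elsewhere (log2 -2.18, SE 0.171; F adjusted p = 3.31e-05). The ligase LIG1 (-1.61, SE 0.200) and DNA2 (-1.10, SE 0.233) were called. WDHD1, which couples polymerase alpha to the helicase, was not (-0.39, SE 0.184; F adjusted p = 0.270). The 6 genes not called by the F test were thus ORC4, ORC5, CDT1, POLD1, RFC1 and WDHD1. ORC5 was called lower in the pool 5 contrast alone (adjusted p = 0.0198).

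With pool 5 left out, no replication gene was called between pool numbers. Among pools 1 to 4, 0 of 48 were called by the limma F test, beside 1.43% of all genes (163 of 11395). At an unadjusted p below 0.05 there were 10 of 48, beside 18.5% of all genes (2103).

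Other features of the pool 5 libraries moved with this result. CDH5, an endothelial cadherin, was at 618, 576 and 577 in pool 5 and at 0 in all other libraries, while PECAM1, KDR and TEK did not reach 10 in any. The summed level of the 5 endothelial markers was 582 to 620.0 in pool 5 and 1.01 to 27.2 in the others, where the highest single value was 27.2, of VWF. Of 7 leukocyte markers, CD14 was at 508 to 672 in pool 5 and at most 23.3 elsewhere, and CD68 at 1471 to 1749 against 343 to 1115. LYZ, the lysozyme gene, went the other way, at 5.81 to 13.9 in pool 5 and 3.92 to 1200.3 elsewhere, and was called lower (log2 -2.75, SE 0.667; limma adjusted p = 0.00474). The leukocyte sum was 2078.5 to 2306 in pool 5, most of it CD68, and 363 to 1763 in the others. CD3E and NKG7 did not reach 10. PTPRC, the pan-leukocyte marker, was at 1.91, 0 and 10.5 in control, CDA and CDA_E67Q of pool 5 and at most 0.455 elsewhere. The 8 epithelial markers summed to 36813 to 41559 in pool 5 and to 24203 to 82679 in the others, a sum made up mostly of KRT8 and KRT18. Of the 6 of these markers that were tested, 3 were called higher in pool 5, beside 24.4% of all genes. These 3 lay above the other libraries without overlap, as 16.9% of all genes did. The keratin gene KRT19 was at 7723 to 7887 in pool 5 and 1499 to 5926 elsewhere, and the claudin genes CLDN4 at 5309 to 5945 against 117 to 2948 and CLDN7 at 40.4 to 58.6 against 0.764 to 16.0. KRT8 was called lower (log2 -1.14, SE 0.248). The 8 fibroblast markers summed to 26453 to 29465 in pool 5 and 7022 to 41768 in the others, most of it COL1A2, with DCN, LUM and FAP at 0. The collagen gene COL1A1 was called higher in pool 5, at 97.8 to 194.9 against 7.16 to 99.0. The part of these genes in the result was not tested.

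Promoters are shown for 5 genes that span the range of the pool 5 difference: GINS2, PCNA and ORC6, among the most lowered, and CDT1 and POLD1, which were not called. The sequences are RefSeq promoters on GRCh38.p14, from 250 bases before to 50 bases after the start, written 5′ to 3′ on the gene's strand. Capitals mark matches to an E2F motif (TTTCCCGC, TTTCGCGC, TTTGCCGC or TTTGGCGC) or to a CCAAT box (CCAAT), each on either strand, and no match overlaps another in these 5 windows.
GINS2, chr16:85688905-85689204, minus strand: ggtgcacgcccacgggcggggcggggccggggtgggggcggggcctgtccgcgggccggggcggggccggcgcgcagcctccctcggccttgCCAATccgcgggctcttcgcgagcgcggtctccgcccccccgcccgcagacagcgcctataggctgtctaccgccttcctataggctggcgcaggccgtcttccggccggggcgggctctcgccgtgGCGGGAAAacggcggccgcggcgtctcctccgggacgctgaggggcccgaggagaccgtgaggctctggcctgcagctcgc
PCNA, chr20:5126573-5126872, minus strand: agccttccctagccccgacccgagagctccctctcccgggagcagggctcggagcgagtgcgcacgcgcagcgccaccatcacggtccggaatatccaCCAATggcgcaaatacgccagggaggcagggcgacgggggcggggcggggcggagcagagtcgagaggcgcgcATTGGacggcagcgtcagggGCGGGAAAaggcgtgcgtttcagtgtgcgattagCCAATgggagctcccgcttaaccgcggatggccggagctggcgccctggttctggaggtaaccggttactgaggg
ORC6, chr16:46689409-46689708, plus strand: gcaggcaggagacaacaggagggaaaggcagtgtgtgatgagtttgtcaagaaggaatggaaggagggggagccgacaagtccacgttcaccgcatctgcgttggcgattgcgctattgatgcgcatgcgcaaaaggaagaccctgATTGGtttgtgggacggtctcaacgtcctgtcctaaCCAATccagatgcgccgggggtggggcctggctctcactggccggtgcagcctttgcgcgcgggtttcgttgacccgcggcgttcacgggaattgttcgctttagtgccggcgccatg
CDT1, chr16:88803539-88803838, plus strand: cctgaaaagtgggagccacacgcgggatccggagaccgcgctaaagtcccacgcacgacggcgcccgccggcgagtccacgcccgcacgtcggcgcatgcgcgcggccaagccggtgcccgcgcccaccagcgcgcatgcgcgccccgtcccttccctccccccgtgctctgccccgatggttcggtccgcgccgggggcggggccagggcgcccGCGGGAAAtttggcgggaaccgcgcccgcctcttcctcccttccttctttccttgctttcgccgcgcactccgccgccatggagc
POLD1, chr19:50384073-50384372, plus strand: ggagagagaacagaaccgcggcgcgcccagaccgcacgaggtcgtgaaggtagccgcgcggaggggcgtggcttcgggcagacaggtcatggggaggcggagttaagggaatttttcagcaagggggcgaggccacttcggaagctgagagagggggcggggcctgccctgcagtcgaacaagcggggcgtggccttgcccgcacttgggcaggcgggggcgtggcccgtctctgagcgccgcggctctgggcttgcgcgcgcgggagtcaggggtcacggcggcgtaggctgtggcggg

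GINS2 and PCNA each held 1 E2F match, GINS2 with 1 CCAAT box and PCNA with 3. ORC6, which was lowered about as much as PCNA, held 2 CCAAT boxes and no E2F match. CDT1, which was not called, held 1 E2F match and no CCAAT box, and POLD1 held neither. The CDT1 and GINS2 windows lie inside the genes as GENCODE draws them (chr16:88803213-88809258 and chr16:85676198-85690073), because the RefSeq starts are further downstream. Over the whole set, 40 of 48 genes matched the promoter table, with 52 promoters, and 20 of these promoters (38.5%) held an E2F match, beside 3.31% of 35116 promoters in the table. By gene it was 20 of 40, beside 6.76% of the 9305 tested genes with a promoter. A CCAAT box stood in 48.1% of the 52 promoters and in 34.6% of all. The median pool 5 difference was -1.39 in the 20 genes with an E2F match (range -2.56 to -0.12) and -0.83 in the 20 without (range -2.18 to -0.08), so the ranges overlapped nearly in full. A match describes letters in the window and not a bound site. MCM4, MCM5, GINS4, RECQL4, POLD3, RPA2, RPA3 and DNA2 were not matched.

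CDA was compared with control at the same pool number. Most of the 48 genes had slightly higher levels in the CDA libraries, and none was called. The limma fit with pool number as a block called 0 of 48, beside 0% of 11341 genes. At an unadjusted p below 0.05 it gave 2 of 48, beside 1.77% of all genes (201), and without the block 1 of 48, beside 0.282% of all genes (32). The difference was above 0 for 40 of 48 (83.3%), beside 52.8% of all genes, with a median of 0.132 log2 beside 0.0112. Without pool 2 it was above 0 for 33 of 48 (68.8%), beside 52.1% of all genes, with a median of 0.0494 beside 0.00914. The score was higher in CDA by 0.12 ± 0.18 (SD, n = 5), 0.15 ± 0.19 without pool 5 and 0.18 ± 0.22 (n = 3) without pools 1 and 4, so the spread between pools exceeded the mean each time. In 1 of 48 genes CDA was higher in all 5 pools and in 0 of 48 lower in all 5, beside 1.96% and 1.60% of all genes, and the groups did not overlap in 0 of 48, beside 0.0529%.

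Most of that difference came from pool 2. The score differed by 0.00, 0.42, 0.13 and 0.05 in pools 1 to 4 and by less than 0.01 in pool 5, and without pool 2 the mean was 0.04. In pool 2 the CDC45 and GINS set was higher by 0.83 and the helicase ring by 0.59. In pool 3 the ring was higher by 0.46. In pool 5, where the replication genes were low, CDA and control differed by at most 0.10 in any complex.

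CDT1 had the smallest p. It was at 2994, 3081, 2277, 2936 and 3014 in control pools 1 to 5 and at 3068, 4715, 4169, 3867 and 2993 in CDA. CDA was the higher by 0.40 log2 or more in pools 2, 3 and 4, within 0.03 of control in pools 1 and 5, and the groups overlapped. The log2 difference was 0.38 (SE 0.149, 95% interval 0.04 to 0.72; unadjusted p = 0.0330, adjusted p = 1.00). GINS1, at chr20:25407727-25452628 in the GENCODE annotation of GRCh38, was at 1620.5, 1455, 1210.1, 1551 and 656 in control and at 1745, 2059, 1767, 1942 and 675 in CDA. It was higher in 5 of 5 pools, although by 0.04 only in pool 5, and the groups overlapped, with pool 5 low in both. The log2 difference was 0.30 (SE 0.122, interval 0.02 to 0.59; unadjusted p = 0.0374, adjusted p = 1.00, and unadjusted p = 0.384 without the block).

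The other members with the smallest p had intervals that held 0. MCM2 was higher by 0.32 (interval -0.03 to 0.67), the primase subunit PRIM2 by 0.26 (-0.03 to 0.56), MCM5 by 0.24 (-0.08 to 0.55), ORC6 by 0.22 (-0.07 to 0.52), CDC45 by 0.20 (-0.06 to 0.46) and GINS2 by 0.20 (-0.08 to 0.49), each in 4 of 5 pools. MCM2 was at 7941, 7052, 5416, 8932 and 3129.8 in control and at 8402, 10655, 10046, 8909 and 3225 in CDA, so that pools 2 and 3 carried the difference. By complex, the differences of largest size among the rest were 0.34 for GINS4, 0.28 for MCM10, 0.23 for DNA2, 0.18 for RFC4, 0.12 for RPA1, -0.14 for POLE2 and -0.11 for POLD2, all with intervals that held 0. GINS4 was higher by 2.66 in pool 2 and differed by -0.89 in pool 3, and without pool 2 its difference was -0.24. POLD2 moved from -0.11 to 0.01 without pool 2. Of the 15 genes named for this comparison, 10 moved by more than 1.5 times when 1 pool was left out. DNA2 was at 0.09 without pool 1, 0.07 without pool 2 and 0.45 without pool 3, and POLE2 at -0.06, -0.30 and -0.05. MCM10 was at 0.18 without pool 2 and 0.17 without pool 3. Without pool 3, RFC4 was at 0.07, MCM2 at 0.18, MCM5 at 0.12, GINS4 at 0.65 and POLD2 at -0.19. ORC6 was at 0.12 without pool 2 and RPA1 at 0.20 without pool 4.

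In CDA_E67Q against control no difference was detected in the replication genes, which does not show that their levels were equal. Both comparisons use the same control libraries, so their differences are not independent. The limma fit called 0 of 48, beside 0% of 11341 genes. At an unadjusted p below 0.05 it gave 0 of 48, beside 2.34% of all genes (265; 54 without the block). The difference was above 0 for 30 of 48 (62.5%), beside 51.4% of all genes, with a median of 0.0457 beside 0.00708. The score differed by -0.21, 0.37, -0.05, 0.03 and 0.04 in pools 1 to 5, a mean of 0.04 ± 0.21 (SD, n = 5). It was 0.04 ± 0.25 (n = 4) without pool 5 and 0.12 ± 0.22 (n = 3) without pools 1 and 4. CDA_E67Q was higher in all 5 pools in 0 of 48 genes and lower in all 5 in 1 of 48, beside 2.14% and 1.96% of all genes, and the groups did not overlap in 0 of 48, beside 0.0794%. Pool 2 holds the libraries with the strongest length trends (-0.44 in CDA_E67Q and -0.30 in control). Without it, 18 of 48 (37.5%) were above 0, beside 50.7% of all genes, and the median was -0.0518. Without pools 1 and 4 the median was 0.121, with 35 of 48 (72.9%) above 0, beside 50.5% of all genes.

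The smallest p in this comparison belonged to RFC3, a clamp loader subunit. It was at 3131, 2287, 2486, 2509 and 1028 in control and at 2056, 1394, 1673, 2946 and 1099 in CDA_E67Q. CDA_E67Q was the lower in pools 1 to 3 and the higher in pools 4 and 5 (log2 -0.31, SE 0.173, interval -0.70 to 0.08; unadjusted p = 0.104, adjusted p = 0.998). The other 7 genes of smallest p had intervals that held 0: GINS4 (-0.34), PRIM2 (0.27), CDT1 (0.23), RFC4 (0.26), RPA2 (-0.23), TOPBP1 (-0.19) and POLD1 (0.38). For POLD1 the size came from pool 2, where CDA_E67Q was higher by 1.64 (7012 against 2238), and without that pool the difference was 0.06. By complex, the differences of largest size among the rest were MCM10 (0.26), MCM7 (0.23), LIG1 (0.17), POLE2 (-0.17) and ORC2 (-0.11). ORC2 was lower in 5 of 5 pools, with an interval of -0.39 to 0.17. Of the 13 genes named for this comparison, 11 moved by more than 1.5 times when 1 pool was left out. Without pool 2, LIG1 was at -0.06, MCM7 at 0.08, RFC4 at 0.10, PRIM2 at 0.18, TOPBP1 at -0.11 and POLE2 at -0.27. Without pool 3, GINS4 was at -0.12, CDT1 at 0.10, RPA2 at -0.12, MCM10 at 0.14 and POLE2 at -0.10. Without pool 1, LIG1 was at 0.36, MCM10 at 0.40 and POLE2 at 0.00. MCM7 was at 0.36 without pool 4 and POLE2 at -0.26 without pool 5.

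Set against each other, CDA and CDA_E67Q differed in no replication gene past the threshold. The limma fit over the 15 libraries called 0 of 48, beside 0% of 11588 genes, and gave 0 of 48 at an unadjusted p below 0.05, beside 1.10% of all genes (127; 24 without the block). The difference was above 0, that is higher in CDA, for 35 of 48 (72.9%), beside 49.6% of all genes, with a median of 0.0831 beside -0.00144. The score was higher in CDA by 0.08 ± 0.11 (SD, n = 5), with 0.21, 0.05, 0.18, 0.02 and -0.04 in pools 1 to 5, by 0.11 ± 0.10 (n = 4) without pool 5 and by 0.06 ± 0.11 (n = 3) without pools 1 and 4. The count above 0 was 26 of 48 (54.2%, median 0.0446) without pool 1, beside 49.7% of all genes. Without pools 1 and 4 it was 28 of 48 (58.3%, median 0.0259), beside 49.7%. It rose to 39 of 48 (81.2%) without pool 2, beside 51.5%, and to 37 of 48 (77.1%) without pool 5, beside 49.6%. In 2 of 48 genes, RFC1 and ORC2, CDA was higher in all 5 pools and in 0 of 48 lower in all 5, beside 2.63% and 1.79% of all genes, and the groups did not overlap in 0 of 48, beside 0.0431%.

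RFC1 was at 2401, 2229.9, 2485, 2502 and 2097 in CDA and at 1896, 1855, 2110.0, 2385 and 1887 in CDA_E67Q. CDA was the higher in 5 of 5 pools, and the groups overlapped (log2 0.21, SE 0.104, interval -0.01 to 0.44; unadjusted p = 0.0625, adjusted p = 1.00). TOPBP1 was higher in CDA by 0.28 (interval -0.02 to 0.58), GINS3 by 0.25 (-0.04 to 0.55), GINS4 by 0.68 (-0.19 to 1.55), GINS1 by 0.19 (-0.06 to 0.44), RPA2 by 0.19 (-0.08 to 0.45), DNA2 by 0.34 (-0.16 to 0.83) and ORC6 by 0.18 (-0.09 to 0.45). The sizes for GINS4, DNA2 and TOPBP1 leaned on pool 2, where the differences were 2.84, 1.42 and 0.87. Without pool 2 they were 0.14, 0.07 and 0.13, and GINS1 was at 0.12 without pool 3. For the other 5 genes the upper bound of the interval was between 0.44 and 0.55. These 8 genes were all higher in CDA. The largest differences the other way, picked out after their values were seen, were POLD1 at -0.32 (interval -0.85 to 0.21; -1.39 in pool 2) and ORC5 at -0.23 (-0.65 to 0.18; -1.11 in pool 2).

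Genes outside the 48 that act in the same processes were also mostly lower in pool 5. Of 40 other replication genes (chromatin assembly, fork protection, firing and cohesion factors), 37 were tested, 28 were called by the F test, beside 45.0% of all genes, and 28 were called lower in pool 5, beside 24.2%, with a median pool 5 difference of -1.05. The counts share 27 genes. POLD4, the small subunit of polymerase delta, was called by the F test but not lower in pool 5 (log2 0.25, SE 0.156; adjusted p = 0.196), and DONSON was called only in the pool 5 contrast (-0.55, adjusted p = 0.0166). The smallest p belonged to the maintenance methylation factor UHRF1, at 2048 to 2168 in pool 5 and 3697 to 9654 elsewhere (log2 -1.46, SE 0.133), to the histone chaperone subunit CHAF1B (-1.65, SE 0.137) and to the histone chaperone ASF1B (-1.26, SE 0.113). The 9 that were not called by the F test were DONSON, ATAD5, CHTF18, CHTF8, TOP1, RTEL1, RIF1, KAT7 and SUPT16H, with differences from -0.55 to 0.12. All 20 mitosis genes were called and were lower in pool 5 without overlap, as 17.3% of all genes were, with a median of -1.40. BIRC5, a chromosomal passenger protein, differed by -1.76 (SE 0.115), the kinetochore protein CENPF by -1.68 (SE 0.120) and the ubiquitin-conjugating enzyme UBE2C by -1.56 (SE 0.141). In the group comparisons 0 genes of either list were called. In CDA against control 33 of 37 other replication genes (89.2%) and 19 of 20 mitosis genes (95.0%) were above 0, beside 52.8% of all genes. The medians were 0.0951 and 0.136. Pool 2 held most of this, with score differences of 0.39 and 0.46. The other pools ran from -0.04 to 0.10 and from -0.03 to 0.14. In CDA_E67Q against control the counts were 18 of 37 (48.6%) and 14 of 20 (70.0%), beside 51.4% of all genes.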

How the data were processed

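Polyadenylated RNA of 15 Mia PACA-2 libraries was sequenced, 5 in each of 3 groups. Per the labels' protocols, the RNA came from an RNeasy extraction and was made into libraries with the NEBNext Ultra chemistry. The submitters' processing notes name Salmon, Trimmomatic, FastQC and bcl2fastq with GRCh38 (hg38). Tool versions, the use of strand and the step from Salmon to the tables are not given in the sources used here. Genes that overlap or run antisense to another are uncertain for that reason. The deposited data are 2 tables of 16887 genes, each with the controls and 1 other group, holding log2 values with a floor of 6.6467 (CDA) and 6.1685 (CDA_E67Q) for genes without reads. No source used here names the transform. The values were taken to be variance-stabilised counts, which compress differences between low genes, and every level rests on that assumption.

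The deposited log2 values were turned back to a linear scale as (2 to the value minus 2 to the floor) squared over 2 to the value. The controls in both tables gave a common scale for 13917 genes, each with a factor of its own, and 2970 were not on it. Among genes at 10 or more in every control, the factors ran from -0.642 to 0.5212 log2. The largest residual among them was 1.37e-08 log2. Whole reads could not be recovered: 28.8 to 39.9% of low values lay within 0.05 of a whole read. Intervals for depth cannot be given. limma 3.58.1 (R 4.3.3, mean-variance trend, 2-sided) was run on log2(level + 1), which understates the change of low genes, for genes at 10 or more in at least 5 libraries. CDA and CDA_E67Q were compared with control within their own tables, and with each other over the 15 libraries; pool number was a block. The F test between pool numbers had group as a term. The fit was also run on simulated data with noise drawn independently for each gene and with same-numbered libraries fully paired. Control pool 1 did not pair in the real data, so that run does not show how the fit behaves here. Python 3.11.15, numpy 2.4.6, pandas 2.3.3, scipy 1.17.1 and matplotlib 3.10.9 were used. Gene positions and transcript lengths are from GENCODE on GRCh38, promoters from RefSeq.

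The block follows from the titles, which give each number to 1 library of each group. The same-numbered libraries deviated together in 13 of 15 pairs (r 0.32 to 0.89) and not between control pool 1 and the other libraries numbered 1 (0.01 and -0.06), so fits without the block and without pools 1 and 4 stand beside the main ones.

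The genes and lists, the emphasis on pool 5 and the tests were chosen with earlier results of these data known. Genes named in a group comparison are the 8 with the smallest p and, in the comparisons with control, the one in each complex with the largest difference; between pool numbers, the 8 with the smallest and 4 with the largest p, and 3 from each of the other lists. The alternatives were another pseudocount (8), no filter, upper-quartile scaling, the deposited values, no trend, no block, each number left out, and all 15 libraries in 1 fit; leaving out pools 1 and 4, or CDA_E67Q pool 2, or pool 5 together with the block, was added after seeing the data. A further leukocyte marker is not reported here and was left out of the leukocyte sum.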

Additional observations from a re-analysis of the deposited data

Results flagged for a closer look

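In each group of 5 libraries, the highest or lowest value was set apart when its gap to the nearest other, divided by the range, passed Dixon's 95% value (0.71 for 5). Chance does this in about 1 of 20 independent groups. Over 87 groups (28 named genes and the replication score, in 3 groups of libraries) there were 28 such values, 26 of them the low value of pool 5. The named genes were partly chosen by their p between pool numbers, and all groups come from the same 15 libraries. The count of 28 therefore cannot be set against that rate.

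The replication score of pool 5 was set apart in all 3 groups, at -0.98 in control, -0.98 in CDA and -0.94 in CDA_E67Q. In control, the pool 5 libraries were set apart for PRIM2 (372.0), CDC45 (309), ORC6 (504.8), GINS2 (294), POLE2 (131), RFC3 (1028), RPA2 (771) and PCNA (1662). In CDA they were set apart for GINS1 (675), MCM2 (3225), CDC45 (358), ORC6 (504.9), MCM5 (995), GINS2 (309.7), MCM10 (335), RFC4 (1020.3), MCM7 (4123), GINS3 (233), PCNA (1693), FEN1 (476) and RFC2 (1038). In CDA_E67Q this held for MCM2 (3155) and MCM5 (1145).

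The other 2 values were not in pool 5. CDT1 was lowest in control pool 3 (2277, the others 2936 to 3081). POLD1 was highest in CDA pool 3 (3915, the others 2534 to 2738).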

How the results depend on the processing

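In the 3 group comparisons 0 of 48 replication genes were called by limma under every setting run, and the score difference moved by less than its spread, although that of CDA_E67Q against control was -0.05 without pool 2. Genes called over the whole table went from 0 to 1, the CDA transcript, under a pseudocount of 8, the deposited values and all 15 libraries in 1 fit in both comparisons with control, and for CDA_E67Q also without pools 1 and 4. Its log2 difference was then 4.44, 2.94 and 4.71 in CDA (adjusted p 0.0246, 0.00220 and 0.00987) and 4.81, 3.50, 5.09 and 3.97 in CDA_E67Q (0.0263, 0.00111, 0.00419 and 0.00562). The fit with no replicate block gave the same differences for the CDA transcript (4.71 and 5.09), 0 calls and an unadjusted p below 0.05 for 32, 54 and 24 genes in place of 201, 265 and 127. Leaving out 1 pool number at a time, GINS4 in CDA against control ran from -0.24 to 0.65, POLD2 from -0.19 to 0.01, and in CDA_E67Q against control POLE2 ran from -0.27 to 0.00 and LIG1 from -0.06 to 0.36. POLE2 was at 0.01 without pools 1 and 4. Between pool numbers the 5217 genes and 42 replication genes called became 1761 and 26 without the CDA libraries, 2008 and 31 without the CDA_E67Q libraries, 4131 and 35 without the control libraries, and 163 and 0 without pool 5, which leave fewer libraries. Leaving out 1 group at a time, CDT1's pool 5 difference ran from -0.23 to 0.01, the latter without the CDA libraries. The count lower in pool 5 ran from 40 to 43. The share of promoters with an E2F match was 38.5% with 150 bases before the start as well. The deposited values could not be fitted for CDA against CDA_E67Q, because the tables have different floors. Depth is not known as counts, so no limit for low levels is given.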
